A study of Mus musculus with 6 samples.

Results

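The genes described here build and mark the neuromuscular junction, the synapse at which a motor axon drives a muscle fibre. They are acetylcholinesterase (Ache), the neural cell adhesion molecule Ncam1, the acetylcholine receptor subunits Chrna1, Chrnb1, Chrnd, Chrng and Chrne, the receptor tyrosine kinase Musk and the receptor scaffold Rapsn. Every probe set whose array annotation gave 1 of these 9 symbols and no other was taken, which found 14 of 12422 probe sets and 9 of the 8251 genes named by single symbols. The samples were soleus muscles, 1 array each. There were 3 from male wild-type C57BL/6 mice and 3 from male mice lacking estrogen receptor beta (BERKO). For neither group do the labels say whether a sample was a single mouse or a pool. The age of either group and the strain and allele of the knockout are not given in the sources used here. No treatment is named for either group. All 6 arrays carry the same lot number.

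In an innervated fibre the receptor is confined to the small patch of membrane under the nerve ending. Agrin from the nerve acts through Musk, and Rapsn then clusters the receptor. The adult receptor holds the alpha, beta, delta and epsilon subunits, and the fetal form has gamma in place of epsilon. When the nerve is cut or silent, nuclei along the whole fibre transcribe Chrna1, Chrnd, Chrng, Musk and Ncam1 again, through myogenin and related factors that bind E-boxes, the sequence CANNTG. Transcription of Chrne under the nerve ending depends on another motif, the N-box CCGGAA, which binds the GABP factor. In denervated muscle of rodents Ache usually falls while the receptor genes rise. The question put to the data was whether the 9 genes were shifted together in the knockout as they are after denervation.

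The promoters of 4 members are shown because they carry these motifs in different arrangements. They come from RefSeq, which held promoters of 6 of the 9 members. Each runs 5′ to 3′ from 250 to 30 bases before the start of the gene, 221 bases in all, and E-boxes and N-boxes are in capitals. The build is GRCm38.p6. The Chrna1 window is chr2:73580368-73580588 on the minus strand, that of Chrng is chr1:87205561-87205781 on the plus strand, that of Chrne is chr11:70619224-70619444 on the minus strand and that of Ache is chr5:137288004-137288224 on the plus strand.
Chrna1: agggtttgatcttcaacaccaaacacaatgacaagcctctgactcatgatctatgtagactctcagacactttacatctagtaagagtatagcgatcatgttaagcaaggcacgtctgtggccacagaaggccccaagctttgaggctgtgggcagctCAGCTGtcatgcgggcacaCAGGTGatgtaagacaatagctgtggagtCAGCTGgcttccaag
Chrng: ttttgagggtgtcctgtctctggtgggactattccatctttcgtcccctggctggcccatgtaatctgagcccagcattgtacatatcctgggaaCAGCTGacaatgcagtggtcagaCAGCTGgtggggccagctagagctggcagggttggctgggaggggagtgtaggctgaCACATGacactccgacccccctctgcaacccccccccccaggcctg
Chrne: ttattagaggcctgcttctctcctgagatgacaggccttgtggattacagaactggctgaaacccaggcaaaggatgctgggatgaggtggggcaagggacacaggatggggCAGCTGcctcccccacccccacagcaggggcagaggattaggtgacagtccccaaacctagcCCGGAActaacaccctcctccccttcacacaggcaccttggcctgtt
Ache: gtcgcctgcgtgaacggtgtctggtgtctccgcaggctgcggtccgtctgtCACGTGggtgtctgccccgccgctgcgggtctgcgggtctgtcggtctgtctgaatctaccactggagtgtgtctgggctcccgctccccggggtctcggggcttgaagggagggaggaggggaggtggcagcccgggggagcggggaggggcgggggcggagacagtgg
Chrna1 held 3 E-boxes, which begin 92, 73 and 44 bases before the start. Chrng also held 3, beginning 155, 132 and 75 bases before it. Chrne held 1 E-box and, nearer to the start, 1 N-box. Ache held the single E-box CACGTG and no N-box. Both motifs were searched on both strands. Of 32851 promoter windows of this length, 62.2% held an E-box, 9.57% held 3 or more and 9.54% held an N-box, so a single E-box is common. A match describes the letters of the window and does not show that a factor binds there.

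The values are the deposited signal intensities, scaled by the authors to a common level. Array medians lay between 39.8 and 40.5 in wild type and between 36.8 and 39.3 in the knockout, lower in the knockout without overlap. Arrays correlated with r from 0.957 to 0.971 across probe sets (not independent replicates). The 3'/5' ratio of the Gapdh controls ran from 0.979 to 1.124 in wild type and from 0.953 to 1.042 in the knockout. Replicate 2 of each group has a title prefix that differs from that of the other 4 arrays, and what the prefix stands for is not given. The probe set of Esr2, the targeted gene, lay at or below the floor of 7.8 (the 20th percentile of all values) on 5 of 6 arrays. It read 2.2, 3.2 and 1.3 on wild-type arrays and 8.4, 3.9 and 6.2 on knockout arrays. It was thus higher on the arrays labelled knockout without overlap, as were 4.66% of all 12422 probe sets. Whether its probes lie in the deleted part is not known. Readings at this level are not a measure of transcript, so the genotype labels could not be checked from them. Fibre genes were bright: the 17 probe sets of 13 muscle fibre markers summed to between 70261 and 86087 in wild type and between 86824 and 92603 in the knockout, without overlap. Of their 14 tested probe sets 12 had a log2 difference above 0, with a median of 0.17, and 4 were higher and 1 lower without overlap. In limma 5 had an unadjusted p under 0.05 and 0 passed. The shares over all probe sets tested were 5.45% higher and 5.23% lower without overlap and 5.24% with an unadjusted p under 0.05. Their part in the junction readings was not tested. The number of arrays limits the precision. Nothing in the labels says that samples came from separate animals, so the p-values below speak only to the spread of these samples, which may be technical.

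Tests were limited to probe sets above 39.4, the median value, on 3 or more arrays of the 6. Of the 14 member probe sets 7 did, covering 6 genes: Ache, Ncam1, Chrna1, Chrnb1, Chrne (by 2 probe sets) and Rapsn. The probe sets of Chrnd, Chrng and Musk did not. Over all 6369 probe sets tested, 0 had an adjusted p under 0.05 in limma and 334 had an unadjusted p under 0.05 (0% and 5.24%). The members were chosen by pathway after the intensities of Ache and Ncam1 had been seen among the largest differences of this same contrast. Their differences are therefore given as a description, with no test.

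The 6 genes with a tested probe set did not shift as a block. Chrnd, Chrng and Musk had none, so all 9 could not be judged together. Ache and 1 probe set of Ncam1 read higher in the knockout without overlap between the groups, the receptor subunit Chrna1 had a lower mean, and the other members overlapped or were too dim to read. Of the 14 probe sets, 8 had a log2 difference above 0 and 6 below, with a median of 0.05. The 7 tested ones, 4 above 0 and 3 below, had a median of 0.24, beside -0.02 over all probe sets tested. The median of the 14 was -0.073 without knockout replicate 3 and 0.15 without knockout replicate 2. Among the 7 that were tested, 2 were higher without overlap and 0 lower. Over all probe sets tested, 5.45% were higher without overlap and 5.23% lower. The choice of members used these values, so nothing is read from their count.

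**Figure D1:**
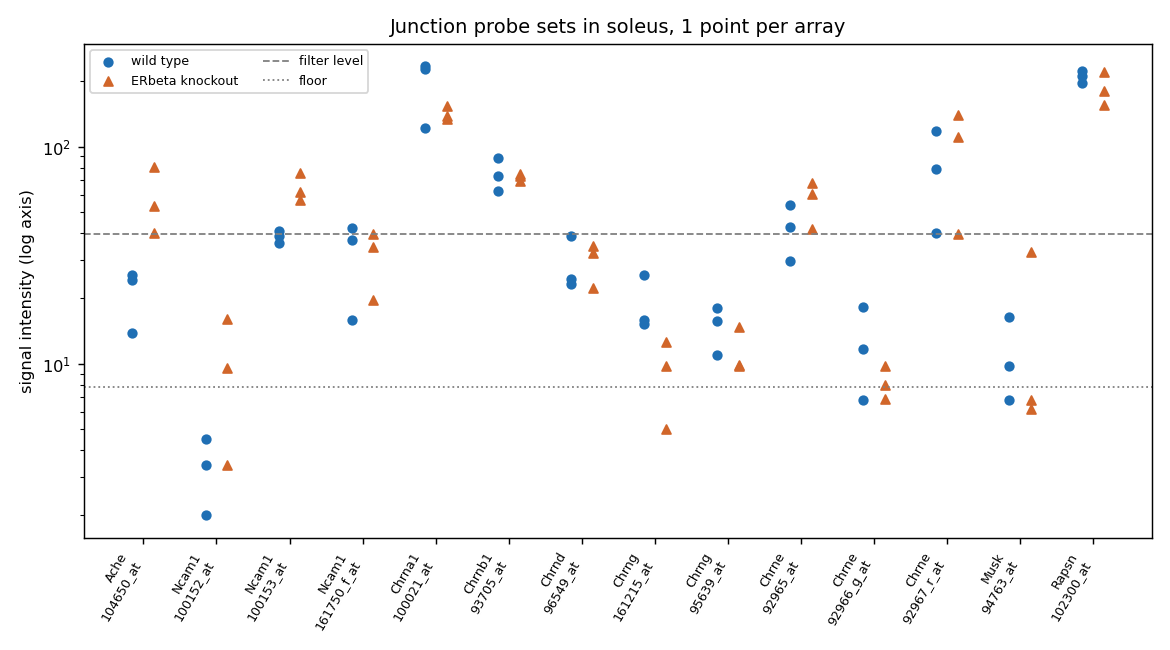
Signal intensity (log axis) of the 14 junction probe sets, 1 point per array, with 3 wild-type arrays (circles) and 3 knockout arrays (triangles) each. The dashed line is the filter level of 39.4 and the dotted line the floor of 7.8. Ache and the Ncam1 probe set 100153_at separate upward in the knockout, and most other probe sets overlap.

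Ache, the enzyme that ends transmission by breaking down acetylcholine in the synaptic cleft, was at 25.5, 13.9 and 24.4 on the wild-type arrays and at 53.1, 40 and 80.7 on the knockout arrays. Every knockout array was above every wild-type array. The means were 21.3 ± 6.40 and 57.9 ± 20.8 (SD, n = 3 each), a ratio of 2.72 on the linear scale and a difference of 1.44 on the log2 scale. The wild-type readings all lay below the filter, and Ache was tested only through its knockout arrays. All 10 probe sets that passed the filter in this way were higher in the knockout without overlap (10 of 10, 100%), as that way of passing requires. The log2 difference was 1.39 within the 4 arrays that share a title prefix and 1.52 between the other 2. When single arrays were left out it ran from 1.16, without wild-type replicate 2, to 1.67, without knockout replicate 2.

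Ncam1, a surface protein that muscle fibres carry mainly at the junction and that satellite cells and Schwann cells also carry, had 3 probe sets with unlike readings. Probe set 100153_at was at 40.8, 38.8 and 35.8 on the wild-type arrays and at 61.5, 56.9 and 75.3 on the knockout arrays. The groups did not overlap, and the means were 38.5 ± 2.52 and 64.6 ± 9.58 (SD, n = 3 each), a ratio of 1.68. Its wild-type level was at the filter, which 1 of 3 arrays exceeded. Its log2 difference of 0.74 stayed between 0.62 and 0.83 under the alternatives run.

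Probe set 161750_f_at of Ncam1 was at 37.1, 15.9 and 42.2 on the wild-type arrays and at 39.5, 19.6 and 34.3 on the knockout arrays. Those groups overlapped throughout, with a ratio of 0.981. The third, 100152_at, read between 2.0 and 16.0, at or below the floor on 4 of 6 arrays, and is not a measure of transcript at that level. The 3 probe sets carry different suffixes and need not read the same Ncam1 transcripts.

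The receptor was read by 8 probe sets for its 5 subunits. Chrna1, the alpha subunit that binds acetylcholine, was at 233.9, 122.0 and 228.8 on the wild-type arrays and at 133.9, 153.1 and 138.0 on the knockout arrays. The mean was lower in the knockout, 141.7 ± 10.1 against 194.9 ± 63.2 (SD, n = 3 each), and the groups overlapped through wild-type replicate 2, the lowest of the 6. The log2 difference was -0.40.

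The difference in Chrna1 went with the title prefix. Within the 4 arrays that share a prefix it was -0.77, with both wild-type arrays above both knockout arrays, and between the other 2 arrays it was 0.33, in the opposite direction. It was -0.71 without wild-type replicate 2, -0.24 without wild-type replicate 1 and -0.26 without wild-type replicate 3. Whether the prefix plays a part was not tested.

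Chrnb1, the beta subunit, was at 62.6, 73.1 and 88.9 on the wild-type arrays and at 69.2, 73.1 and 74.5 on the knockout arrays. All 3 knockout values fell inside the wild-type range. The means were 74.9 ± 13.2 and 72.3 ± 2.75 (SD, n = 3 each), and the sign of the small difference changed with the scaling, from -0.037 as deposited to 0.03 with scaling to a common median.

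Chrne, the subunit of the adult receptor, was at 53.7, 42.6 and 29.7 on the wild-type arrays and at 60.2, 68.2 and 41.8 on the knockout arrays by probe set 92965_at. The knockout mean was higher, at a ratio of 1.35, and the groups overlapped. Its log2 difference of 0.45 fell to 0.22 without wild-type replicate 3. A second probe set, 92967_r_at, ranged from 39.9 to 118.4 in wild type and from 39.5 to 139.4 in the knockout. Its spread within each group was wider than the difference of the means, 79.0 ± 39.3 against 96.4 ± 51.4 (SD, n = 3 each). Its log2 difference of 0.24 ran from -0.19, without wild-type replicate 3, to 0.79, without knockout replicate 1. It was also below 0 without knockout replicate 3, at -0.12, and was 0.60 without wild-type replicate 1 and 0.045 without knockout replicate 2. The third, 92966_g_at, was dim and overlapped, between 6.8 and 18.2.

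Chrng, the subunit of the fetal and denervated receptor, was dim in both groups. Probe set 161215_at was at 15.9, 15.3 and 25.6 on the wild-type arrays and at 9.8, 12.6 and 5.0 on the knockout arrays, lower in the knockout without overlap. Of all 12422 probe sets, dim ones included, 5.37% were lower and 4.66% higher in this way. The other, 95639_at, was at 15.7, 18 and 11 on the wild-type arrays and at 14.8, 9.8 and 9.9 on the knockout arrays, and overlapped. No reading of either probe set reached the filter, and neither was higher on average in the knockout.

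Chrnd, the delta subunit, whose gene lies next to Chrng in the annotation with 0 genes between, was at 24.5, 38.8 and 23.3 on the wild-type arrays and at 32.2, 22.3 and 35.0 on the knockout arrays. The groups overlapped. Within the 4 arrays that share a title prefix the log2 difference was 0.49, and between the other 2 it was -0.80.

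The organisers of the receptor patch did not separate. Rapsn, which ties the receptor to the cytoskeleton, was at 222.3, 210.7 and 196.5 on the wild-type arrays and at 219.8, 179.6 and 156.2 on the knockout arrays, with means of 209.8 ± 12.9 and 185.2 ± 32.2 (SD, n = 3 each). Knockout replicate 1 lay inside the wild-type range and the others below it. The log2 difference was -0.19, -0.077 without knockout replicate 3 and -0.32 without knockout replicate 1. Musk was at 9.8, 16.4 and 6.8 on the wild-type arrays and at 6.8, 6.2 and 32.6 on the knockout arrays. A single array, knockout replicate 3, set its higher knockout mean: the log2 difference of 0.22 was -0.47 without it. Without wild-type replicate 3 it was -0.013.

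**Figure D2:**
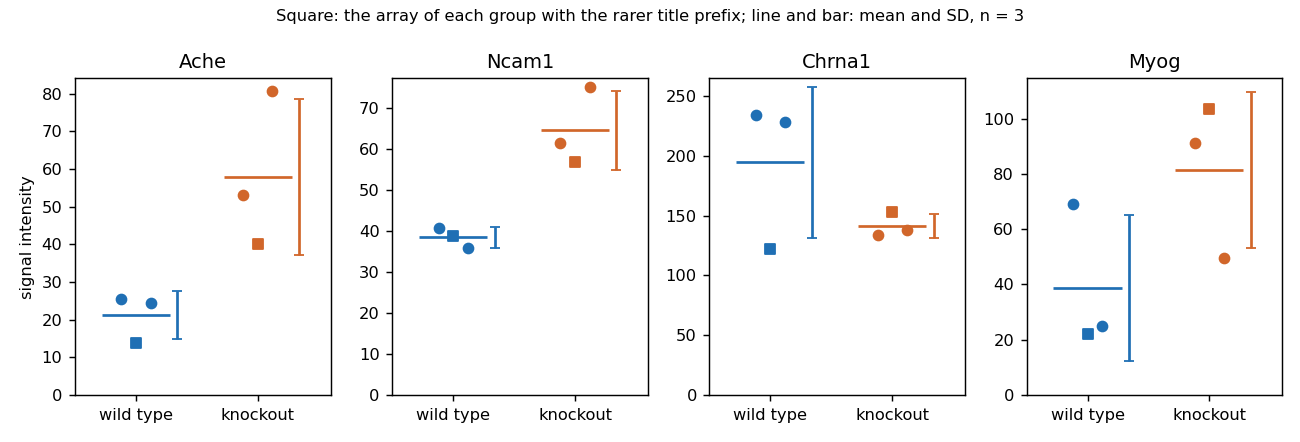
Signal intensity of Ache, Ncam1 (100153_at), Chrna1 and myogenin (Myog) on each array, with the mean (line) and SD (bar) of 3 arrays per group; squares mark replicate 2 of each group, which shares the rarer title prefix. Ache and Ncam1 do not overlap between the groups, while Chrna1 overlaps through the wild-type square and Myog through wild-type replicate 1.

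The arrays were also compared within each group, which the choice of members did not use. Over the 7 tested probe sets, wild-type replicate 1 was above its group's mean for 6 and below it for 1, with a median deviation of 0.31 on the log2 scale. On each of the other 5 arrays, between 2 and 4 of the 7 were above the group mean. Knockout replicate 3, which had the highest Ache and Ncam1 readings, had the lowest Rapsn reading. Apart from wild-type replicate 1, no array stood above or below its group for nearly all members.

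The likeness of other genes to each member was measured as the root mean square difference of log2 values over the 6 arrays, each gene centred on its own mean. Closest to Ache were Ada, an adenosine deaminase, at 0.255, Fgfr3, a fibroblast growth factor receptor, at 0.283 and Ogg1, a DNA glycosylase, at 0.33, where Ache itself deviated from its mean by 0.826. Ada was at 47.5, 32.2 and 46.2 on the wild-type arrays and at 106.3, 58.8 and 111.9 on the knockout arrays, with replicate 2 lowest in both groups, as for Ache. Closest to Chrna1 was Trgv1, at 0.081, which was at 74.7, 38.0 and 75.3 on the wild-type arrays and at 48.6, 46.9 and 46.4 on the knockout arrays. It has the same low wild-type replicate 2. Sh3glb1 and Adi1 followed at 0.134 and 0.136. Closest to the tested Ncam1 probe set were Ninj1, an adhesion protein of injured nerve, at 0.10, Ido1 at 0.143 and Olfr94 at 0.16. Closest to Chrnb1 were Dgcr2, Foxo3 and Ypel3, at 0.023 to 0.05, and closest to Rapsn were Nav1, Emp3 and Tmco1, at 0.058 to 0.065. Closest to the Chrne probe set 92965_at were Ddx50, Pbx3 and Aak1, at 0.163 to 0.185, and closest to 92967_r_at were Cd4, Ccni and Gata4, at 0.29 to 0.396. Like Ache, the probe sets of Fgfr3, Ogg1 and Ninj1 lay below the filter on every wild-type array and above it on every knockout array. That way of passing fixed the direction of their group difference, so their likeness to Ache or Ncam1 in it says nothing. With 6 arrays and so many genes, close matches arise without any relation. None of the genes that came closest was another member.

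The other genes of the junction showed no common shift. This list and the denervation lists were chosen with earlier results of these data known. Of 36 genes listed, 28 were on the array and 21 were tested, by 22 probe sets. Of these, 11 had a log2 difference above 0 and 11 below, 0 passed in limma and 0 had an unadjusted p under 0.05 (5.24% of all probe sets tested). The median was -0.01, beside -0.02 over all, and turned to 0.061 with scaling to a common median. Agrn, the gene of agrin, was read by 2 tested probe sets with log2 differences of -0.21 and -0.16, and both overlapped. These are readings of whole muscle and do not show the agrin that comes from the nerve.

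Prkar1a, a regulatory subunit of protein kinase A, was the only tested probe set of the list whose groups did not overlap, at 779.9 ± 26.9 and 871.0 ± 45.7 (SD, n = 3 each; adjusted p = 0.958 in limma). It was higher in the knockout without overlap, as were 5.45% of all probe sets tested. Colq, the collagen tail that anchors acetylcholinesterase in the synaptic cleft, was at 59.6, 49.2 and 54.3 on the wild-type arrays and at 76.0, 49.6 and 70.9 on the knockout arrays. The knockout mean was higher at a ratio of 1.21, the groups overlapped, and the adjusted p in limma was 0.958. Utrn, the utrophin of the junctional membrane, had a log2 difference of -0.33 ± 0.27 (SE) and Gabpa, the GABP subunit that binds the N-box, one of -0.28 ± 0.23 (adjusted p = 0.958 in limma for each). A second Utrn probe set was at 11.3, 34.8 and 21.0 on the wild-type arrays and at 36.2, 16.6 and 47.6 on the knockout arrays. Its log2 difference was 0.6, in the opposite direction, and its groups overlapped. A second Gabpa probe set was at 20.3, 17.8 and 21.7 on the wild-type arrays and at 15.1, 6.5 and 7.5 on the knockout arrays. For the partner subunit Gabpb1, the tested probe set overlapped with a ratio of 0.994 (adjusted p = 0.999 in limma). A second Gabpb1 probe set was at 42.5, 42.2 and 37.5 on the wild-type arrays and at 30.3, 24.7 and 34.9 on the knockout arrays. The second probe sets of Gabpa and Gabpb1 were lower without overlap, as were 5.37% of all 12422 probe sets. None of the second probe sets of Utrn, Gabpa and Gabpb1 passed the filter, and they were named after their values were seen.

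Genes known to rise in denervated muscle did not shift together either. Of 26 listed, 16 were on the array and 10 were tested, by 12 probe sets, of which 6 had a difference above 0 and 6 below. The median log2 difference was 0.03, and -0.013 within the 4 arrays that share a title prefix. In limma 0 passed and 2 had an unadjusted p under 0.05 (5.24% of all probe sets tested), those of Myog and Nes. Myogenin, the E-box factor that drives receptor genes in denervated fibres, was at 69.2, 22.2 and 24.8 on the wild-type arrays and at 91.0, 103.6 and 49.6 on the knockout arrays. Wild-type replicate 1 overlapped with the lowest knockout array. Myog was above the filter on 1 wild-type array and on 3 knockout arrays. Its wild-type arrays alone would not have passed it, and this way of passing favours a higher knockout mean, which limits its p. The log2 difference was 1.21 ± 0.45 (SE; unadjusted p = 0.024 and adjusted p = 0.923 in limma), 1.73 without wild-type replicate 1 and 0.70 within the 4 arrays that share a title prefix.

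Nes, the intermediate filament protein nestin, which is enriched at the junction, was at 204.0, 266.3 and 184.5 on the wild-type arrays and at 283.0, 265.6 and 278.8 on the knockout arrays. The groups met at wild-type replicate 2, and the log2 difference was 0.35 ± 0.15 (SE; unadjusted p = 0.044 and adjusted p = 0.923 in limma). Myod1, which like myogenin rises after denervation, had a lower knockout mean, 128.6 ± 22.4 against 151.1 ± 13.1 (SD, n = 3 each; adjusted p = 0.958 in limma). Mt2, a metallothionein, had one of 290.1 ± 16.6 against 428.0 ± 179 (adjusted p = 0.937 in limma), and its log2 difference of -0.48 was -0.17 without wild-type replicate 3 and -0.76 without wild-type replicate 2. Of the other tested probe sets of genes known to rise, Gadd45a had a log2 difference of -0.12, Mt1 -0.09, Cdh15 0.08 and Ampd3 0.26. Separate probe sets gave 0.19 and -0.02 for Actc1 and -0.14 and 0.11 for Cdkn1a. All of these overlapped. Runx1 read between 14.7 and 29.2 and embryonic myosin Myh3 between 30.2 and 44.9, both below the filter on most or all arrays.

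Of 8 genes known to fall after denervation, 8 were on the array and 6 were tested, by 7 probe sets. Their median log2 difference was 0.09, with 4 above 0 and 3 below. In limma 0 passed and 1 had an unadjusted p under 0.05 (5.24% of all probe sets tested), that of Hk2. The median was -0.27 within the 4 arrays that share a title prefix and -0.063 without knockout replicate 2. Hk2, hexokinase, was higher in the knockout without overlap, as were 5.45% of all probe sets tested. Its means were 1588 ± 33.5 and 1823 ± 72.4 (SD, n = 3 each). Its unadjusted p was 0.0424 and its adjusted p 0.923 in limma. The chloride channel Clcn1 and the glucose transporter Slc2a4 also had higher knockout means, at ratios of 1.24 and 1.12, and the calcium buffer Pvalb a lower one, at 0.609 by probe set 96720_f_at and 0.796 by 96719_i_at. The log2 difference of 96720_f_at was -1.01, and -0.33 without knockout replicate 3 and -1.66 without knockout replicate 2. Clcn1, Slc2a4 and both Pvalb probe sets overlapped (adjusted p = 0.937, 0.958, 0.949 and 0.96 in limma).

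**Figure D3:**
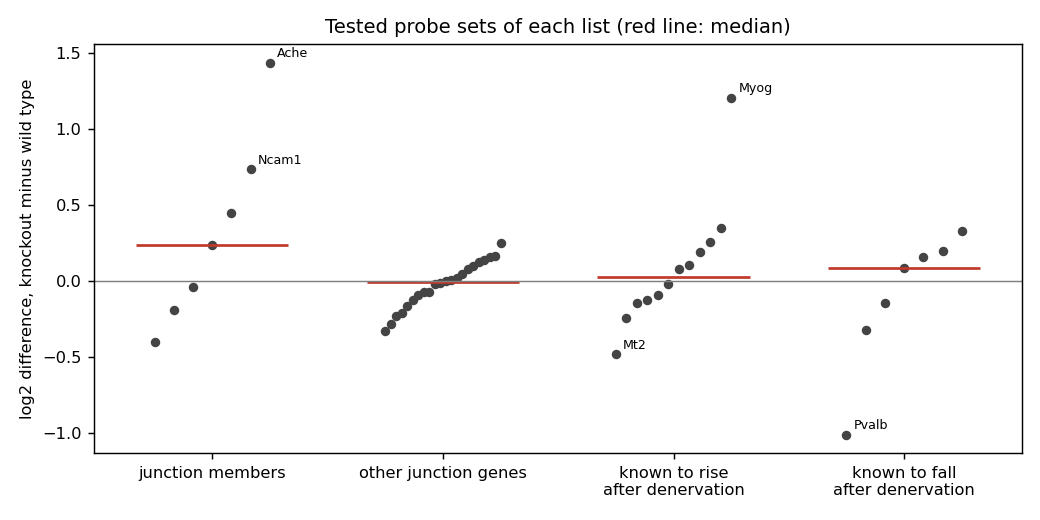
Log2 difference, knockout minus wild type, of each tested probe set (points) of the members, of the other junction genes and of genes known to rise or fall after denervation; red lines are medians. The medians of the 3 lists other than the members lie between -0.01 and 0.09, and points beyond 0.45 in size are named.

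Other cells of a whole muscle carry some of these genes, so their markers were read beside them. In bulk samples fewer cells of a type and less RNA per cell cannot be told apart. Ache is also made by red cell precursors. The 6 probe sets of 5 erythroid genes summed to between 1991 and 5736 in wild type and between 2390 and 2671 in the knockout, and all 4 tested had log2 differences below 0. Wild-type replicate 1 gave the highest sum, and the sums of the other 2 wild-type arrays, 1991 and 2205, lay below those of all 3 knockout arrays. Most of each sum came from Hba-a1, so the sums do not give the sign of the other erythroid probe sets. Hba-a1 was at 4499.9, 1662.2 and 1788.0 on the wild-type arrays and at 2277.4, 2029.4 and 2140.0 on the knockout arrays. Ncam1 is also made by Schwann and satellite cells. The 14 probe sets of 9 Schwann cell genes summed to between 579.0 and 725.5 in wild type and between 557.4 and 660.5 in the knockout, with Sox10 and Pmp22 each at or below the floor on every array by 1 of their 2 probe sets. Of the 6 Schwann probe sets tested, 2 were above 0 and 4 below, with a median log2 difference of -0.10. Sox10 stood at 0.47 and overlapped, while Egr2, at -0.37, was lower in the knockout without overlap, as were 5.23% of all probe sets tested. The 13 probe sets of 7 satellite cell genes summed to between 827.2 and 1032 in wild type and between 851.9 and 932.5 in the knockout. Of 12 probe sets of 9 axon genes, 5 were at or below the floor on all arrays, among them those of Slc18a3, the vesicular acetylcholine transporter, and Snap25. Readings at that level are not a measure of transcript, and nothing about axons or innervation is read from them. The part of these cells in the Ache and Ncam1 readings was not tested.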

How the data were processed

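The deposited values are signal intensities on a linear scale, 1 per probe set and array. The program behind them is not given here. With the top and bottom 2% trimmed, every array's mean was 99.98, so no further scaling was applied. Leaving out 66 controls, 12422 of 12488 probe sets remained. The array annotation gave 1 symbol to 10833 of these, several to 396 and none to 1193.

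Values under 7.8 were set to that floor and taken to log2. Knockout minus wild type was fitted with limma 3.58.1 in R 4.3.3 (lmFit, eBayes with an intensity trend, two-sided, Benjamini-Hochberg over 6369 probe sets). The median SE of a log2 difference was 0.18. The steps were tested on simulated data. No pair of arrays was identical.

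The members and lists were chosen with earlier results of these data known. Genes named are all members, and of the other junction and denervation lists the tested probe sets without overlap and the 4 with the smallest p per list, plus the 3 genes nearest to each tested member. Agrn, Gadd45a, Mt1, Cdh15, Ampd3, Actc1, Cdkn1a, Runx1, Myh3, Sox10, Egr2 and Hba-a1 were named after their values were seen. So were both Gabpb1 probe sets, the brighter Pvalb probe set and the second probe sets of Gabpa and Utrn. Marker lists of endothelium, macrophages, fibroblasts, adipocytes and smooth muscle were also read: 0 of their probe sets passed in limma, and their median log2 differences were -0.08, 0.03, 0.02, -0.28 and 0.06. Plots used matplotlib 3.10.9 (Python 3.11.15).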

Additional observations from a re-analysis of the deposited data

How the results depend on the processing

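The alternatives were quantile normalization, median scaling, a lower and a higher floor (5th and 40th percentile), dropping the filter or raising it to the 70th percentile, robust or untrended eBayes, array weights, 2 blocks, each array left out, and, chosen after seeing the data, the 4 arrays sharing a title prefix alone. Ache, the tested Ncam1 probe set, Chrna1, Rapsn and the Chrne probe set 92965_at kept their direction in all 18, with log2 differences from 1.14 to 1.67, 0.62 to 0.83, -0.77 to -0.24, -0.32 to -0.077 and 0.22 to 0.65. This says little of stability: groups without overlap cannot change sign when an array is left out, the members were proposed with these differences known, and the filters, eBayes settings and blocks leave a log2 difference as it is. The median of the 14 member probe sets lay between -0.073 and 0.15 over the fits with 1 array removed, that of the denervation rise list from -0.009 to 0.12, that of the fall list from -0.063 to 0.18 and that of the other junction list from -0.055 to 0.027. The last was 0.061 with median scaling, which moved the median of all probe sets from -0.016 to 0.051. The count of probe sets called was 0, and 1 in each of 3 alternatives: without the filter (Hoxd1, adjusted p = 0.024 in limma), with neighbouring title numbers as the replicate block (Myh4, adjusted p = 0.00313) and without knockout replicate 1 (Tuba1a, adjusted p = 0.041), so leaving out arrays gave 0 to 1. None of these is a member. The labels do not say that adjacent title numbers pair samples. The cause of the 3 calls was not tested. Dim probe sets depend on the floor: at the 40th percentile the Chrng differences were -0.009 and 0, against -0.90 and -0.37.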
